A study of Mus musculus with 32 samples.

Results

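The NR4A orphan nuclear receptors Nr4a1, Nr4a2 and Nr4a3 were followed across mouse B cell lymphoma lines that lack ATM, germinal centre (GC) B cells and splenic B cells, and across lymphoma lines given a BTK inhibitor. The 3 members were taken by symbol from the arrays' probe annotation, among 35019 named genes. The study hybridised 32 two-colour Agilent arrays, each carrying RNA of a sample labelled with Cy5 against a comparison RNA labelled with Cy3. On 24 arrays the comparison was a pool of RNA from lymphomas, GC cells and resting and anti-IgM-treated spleen cells of each genotype, and on 8 arrays it was vehicle-treated cells of the same line. The lymphoma group held 9 lines (1001, 1004, 1007, 1010, 1013, 1016, 1019, 1036 and 1039) grown from spleens of ATMKO.CD3epsilonKO mice, which lack ATM and, in this strain, the T cell receptor chain CD3 epsilon as well. GC B cells were taken from ATMWT mice immunised with sheep red blood cells (SRBC), for which no CD3epsilonKO allele is named. Splenic B cells of ATMKO.CD3epsilonKO mice were left untreated or given 15 ug/ml goat anti-mouse IgM, which crosslinks the B cell receptor, for 3, 6 or 24 h, and those of ATMWT.CD3epsilonKO mice were untreated or stimulated for 6 h. The lines 178119 and 28545, also from ATMKO.CD3epsilonKO mice, received 100 nM PCI-32765 (ibrutinib, which blocks the kinase BTK downstream of the B cell receptor) or DMSO for 1, 3, 6 or 24 h, with 1 array per line and time. All lymphoma lines and the CD3epsilonKO splenic cells thus share the loss of CD3 epsilon, and the GC cells differ from the lymphoma lines in the ATM genotype too.

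The NR4A proteins are nuclear receptors whose ligand-binding pocket is filled by bulky side chains, so their activity is set largely by how much protein is made. Their genes are immediate early genes: in B and T cells, antigen receptor signalling through calcium, calcineurin, MAP kinases and factors of the MEF2, CREB and SRF families switches them on within hours and the transcripts then decay. In mouse lymphocytes Nr4a1 is widely used as a reporter of antigen receptor signalling, and Nr4a1 and Nr4a3 are known as tumour suppressors in mouse myeloid cells.

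The 3 genes had 4 probes. The Nr4a1 probe lies at chr15:101105071-101105130 of mm9 in the 3′ UTR. The brighter of the Nr4a2 probes, used for the tests, lies at chr2:56960699-56960758 in the coding sequence, and the other at chr2:56959637-56959696 in the 3′ UTR. The Nr4a3 probe joins exons within chr4:48080690-48083876 and was printed in 10 spots per array. The 2 probes outside the 3′ UTR are shown as the sequences whose signal stands for these genes.
Nr4a2 probe A_52_P494622: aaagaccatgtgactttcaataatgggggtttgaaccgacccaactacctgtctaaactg
Nr4a3 probe A_51_P128397: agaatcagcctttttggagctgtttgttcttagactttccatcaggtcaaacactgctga

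The promoters are shown because CREB-family factors are among the textbook regulators of these genes and bind a short core of the cAMP response element, TGACG. Each sequence holds the 250 bases before the gene's start in the RefSeq table of GRCm38.p6, on the gene's strand, with that core, read on either strand, in capitals.
Nr4a1 promoter, chr15:101266596-101266845, plus strand: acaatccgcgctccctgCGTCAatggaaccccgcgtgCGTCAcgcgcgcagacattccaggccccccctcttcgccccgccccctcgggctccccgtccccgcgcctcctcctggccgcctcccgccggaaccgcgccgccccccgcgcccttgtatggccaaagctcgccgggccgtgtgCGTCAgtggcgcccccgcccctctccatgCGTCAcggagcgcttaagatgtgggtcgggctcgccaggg
Nr4a2 promoter, chr2:57124004-57124253, minus strand: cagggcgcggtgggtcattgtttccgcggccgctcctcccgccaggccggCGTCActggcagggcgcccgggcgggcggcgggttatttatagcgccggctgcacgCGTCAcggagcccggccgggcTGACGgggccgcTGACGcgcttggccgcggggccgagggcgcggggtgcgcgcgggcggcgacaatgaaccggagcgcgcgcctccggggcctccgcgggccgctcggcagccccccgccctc
Nr4a3 promoter, chr4:48045055-48045304, plus strand: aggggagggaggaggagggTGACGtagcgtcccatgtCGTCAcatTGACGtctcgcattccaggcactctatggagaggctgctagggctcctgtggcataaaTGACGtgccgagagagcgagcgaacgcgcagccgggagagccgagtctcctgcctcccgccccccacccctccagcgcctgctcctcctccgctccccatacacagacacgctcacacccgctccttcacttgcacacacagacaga

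Each promoter held 4 such cores. Of 32851 mouse promoters of the same length, 17.8% held at least 1 and 0.137% at least 4. In Nr4a1 the 4 sites began 233, 213, 69 and 40 bases before the start, in Nr4a2 200, 144, 123 and 111, and in Nr4a3 231, 213, 205 and 147. All 4 sites of Nr4a1 lay in the sequence TGCGTCA (searched on both strands), which overlaps the core and was found in 1.75% of all promoters but not in the Nr4a2 or Nr4a3 windows. Neither the full element TGACGTCA (1.55% of promoters) nor AAAGGTCA, the element NR4A proteins bind as monomers (1.34%, both strands), was present in these windows. The GC content was 74.4% for Nr4a1, 80.0% for Nr4a2 and 63.6% for Nr4a3. The table gives 1 start per gene, and other RefSeq transcripts start elsewhere.

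Values are given as the log2 ratio of a sample to the pool after background correction and within-array normalisation, and technical repeats were averaged, which left 16 samples on the pool arrays. On the first GC array 29.4% and on the first array of line 1039 21.9% of probes were above background in the sample channel, against 49.9% to 60.7% on the other pool arrays. The first GC array correlated at r = 0.0641 and r = 0.066 with the other GC arrays, and the first array of line 1039 at r = 0.3 with its repeat. Several results that rest on these arrays are given with and without them. On the 24 h array of line 28545, 85.5% of probes were above background, against 45.6% to 53% on the other drug arrays. No dyes were swapped, so a dye bias of a probe and a difference from the comparison RNA cannot be told apart on 1 array. On the pool arrays the comparisons rest on differences between samples, and on the drug arrays on the ratio itself. The 7 B cell marker genes were above background in every lymphoma line, in GC cells and in all splenic samples.

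Nr4a1, the member most tied to antigen receptor signalling, was highest in untreated ATMKO splenic B cells and low in every lymphoma line. Its log2 ratio to the pool was -2.60 in line 1039 (-1.98 with the array that stood apart), -2.88 in 1007, -2.99 in 1013, -3.26 in 1010, -3.31 in 1016, -3.38 in 1019, -3.51 in 1001, -3.59 in 1004 and -3.87 in 1036. The 2 concordant GC arrays gave -3.03 and -3.04, within the span of the lines, and the first GC array gave 0.19. In ATMKO splenic cells it was 3.02, 3.39 and 3.20 on the 3 untreated arrays, 2.03 after 3 h of anti-IgM, -0.13 and 0.08 on the 2 arrays at 6 h and -1.95 at 24 h. In ATMWT splenic cells it was -0.04 after 6 h of anti-IgM and 0.11 untreated. All 9 lines lay below all 6 splenic samples. The samples were then ranked by ratio without the first GC array and the first array of line 1039. Untreated ATMKO cells, 3 h ATMKO cells, a group of untreated ATMWT and both 6 h samples, 24 h cells and then the lines stood apart by more than 2 technical SD (SD 0.14, 6 degrees of freedom). With all arrays line 1039 (-1.98) lay beside the 24 h sample (-1.95). In the sample channel alone untreated ATMWT cells read 14.35, nearer to the 24 h sample (14.11) than to the 6 h arrays (15.49 to 15.71). Neighbours within the 6 h group and within the lines and GC cells did not differ beyond that spread.

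Nr4a2 kept nearly the same order among splenic samples but spread much more widely among the lymphomas. Its log2 ratio was -0.39 in line 1004, -0.95 in 1019, -1.72 in 1016, -2.23 in 1036, -2.61 in 1013, -3.06 in 1001, -3.34 in 1010, -3.44 in 1007 and -3.79 in 1039 (-1.89 with the array that stood apart). The concordant GC arrays both gave -3.22. In ATMKO splenic cells it was 2.11, 2.27 and 2.20 untreated, 1.01 at 3 h, -0.04 and -0.02 at 6 h and -1.77 at 24 h, and in ATMWT cells -0.22 at 6 h and -0.15 untreated. Lines 1004 and 1019 overlapped the splenic range, since they were above the 24 h sample, also on the second probe. Line 1016 was level with the 24 h sample on the tested probe (-1.72 and -1.77) and below it on the second (-1.41 and -1.25). The second probe gave the same extremes, -0.56 in line 1004 and -2.91 in line 1039, with 2.49 in untreated ATMKO and -0.38 in untreated ATMWT cells.

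Nr4a3 was the faintest member and was close to the detection limit in most samples. It was above background on 1 of 12 lymphoma arrays, 0 of 3 GC arrays, 4 of 5 anti-IgM arrays and 3 of 4 untreated arrays. Its log2 ratio was 1.54 at 3 h, against 0.40, 0.87 and 0.86 on the untreated ATMKO arrays, and then 0.27 and 0.24 at 6 h and -0.30 at 24 h. The ATMWT samples gave 0.21 at 6 h and -0.49 untreated, and the 9 lines lay between -0.52 in 1004 and 0.28 in 1039. Nr4a3 was thus the member whose highest sample was the 3 h one. Where a sample was not above background no exact size could be given. Nr4a3 at 3 h read 3.75-fold higher than in untreated ATMWT cells and 3.43-fold higher than at 24 h. It read 2.62-fold higher than the level taken for GC cells. At 6 h in ATMWT cells it read 1.63-fold higher than in untreated ATMWT cells. These values take the dim sample at the lowest signal of any detected probe or its own, whichever was higher, and they have no replicate behind them. For untreated ATMWT and 24 h cells the sample's own signal was used, so those values are ratios to a reading not above background. The GC level includes the first GC array. The lowest detected signal is not a detection limit of this probe, so none of the values is a strict bound. They use the sample channel alone. An adjusted p given beside such a value further below is from the limma test of the ratio to the pool and not of that value.

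**Figure D1:**
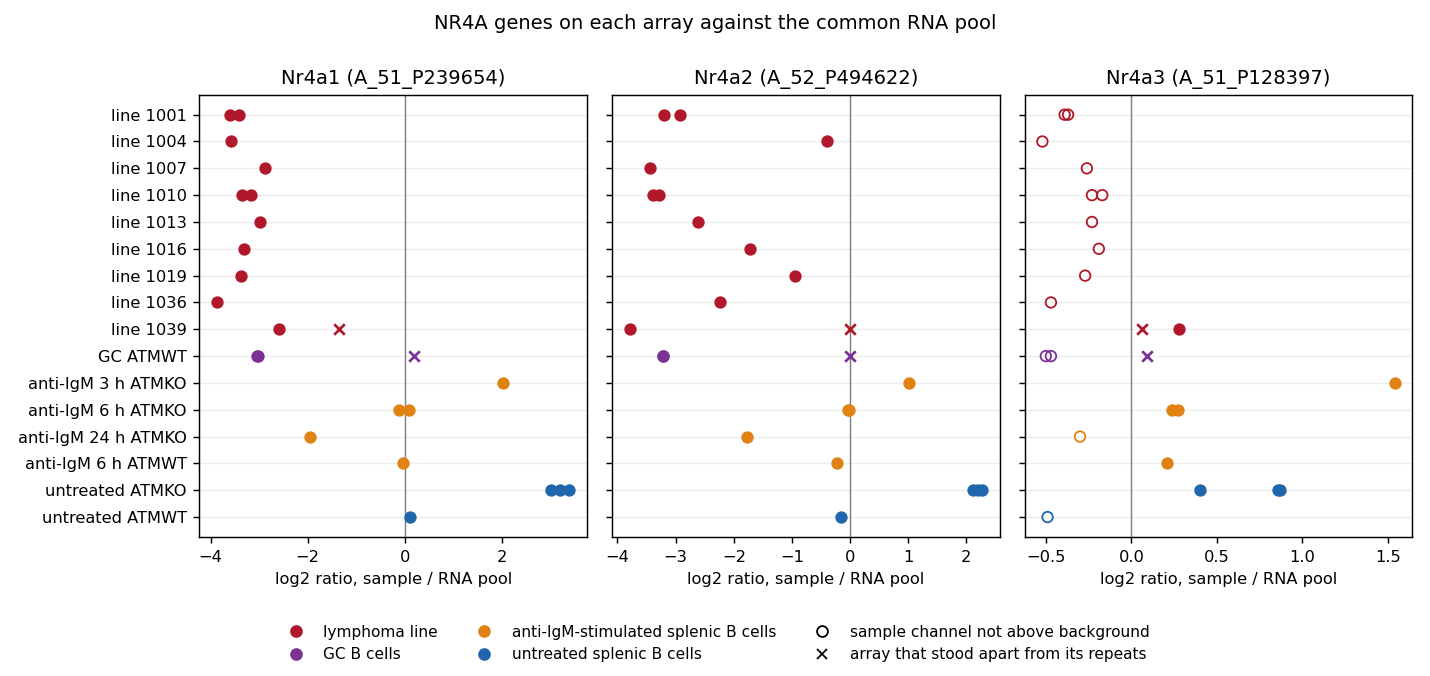
Log2 ratio of sample to pool for Nr4a1, Nr4a2 and Nr4a3 on each array, grouped by the 16 samples. Points are arrays, open points were not above background and crosses are the 2 arrays that stood apart. Untreated ATMKO cells are at the top for Nr4a1 and Nr4a2 (means 3.20 and 2.19) and 3 h cells for Nr4a3 (1.54), while the lines lie at the bottom for Nr4a1 and spread for Nr4a2.

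Of the 3 members, 2 were lower in lymphoma lines than in untreated splenic B cells, in a comparison where 35.8% of all 21399 genes tested changed and 21.1% were lower. Nr4a1 averaged -3.20 ± 0.55 in lymphoma lines (SD, n = 9), or -3.27 ± 0.39 without the array of line 1039 that stood apart, against 3.20 and 0.11 in the untreated ATMKO and ATMWT samples. Setting the lines against each untreated sample alone gave different sizes. Against untreated ATMKO cells the differences were -6.40 ± 0.52 (SE) for Nr4a1 and -4.38 ± 0.99 for Nr4a2, with limma adjusted p = 0.000102 and 0.00851, where 26.4% of genes changed. Against untreated ATMWT cells they were -3.30 and -2.03, with limma adjusted p = 0.00123 and 0.165, where 25.7% changed. For Nr4a3 no size is given against single samples, since its probe was above background on 1 of 12 lymphoma arrays. In the sample channel alone, not divided by the pool and without the arrays that stood apart, the Nr4a1 difference was -4.53 ± 0.36 from untreated ATMKO and -1.58 ± 0.36 from untreated ATMWT cells (limma adjusted p = 1.12e-05 and 0.0125), and over both untreated samples -3.06 ± 0.65 (adjusted p = 0.0024). These single-sample fits take the spread from the 9 lines and assume that the lone sample varies like them. Over both untreated samples Nr4a2 was 9.22-fold lower in lymphoma lines (log2 difference -3.21 ± 0.82 SE, limma adjusted p = 0.00661, 9 lines against 2 samples), and Nr4a3, mostly at background in the lines, differed by -0.37 ± 0.36 (adjusted p = 0.453). Without the arrays that stood apart the Nr4a2 difference was -3.42 (adjusted p = 0.00632) and that of Nr4a1 -4.92 ± 0.77 (adjusted p = 0.000161), where 36.6% changed. Without the untreated ATMKO sample the Nr4a2 call was lost (adjusted p = 0.195).

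Arrays of the lymphoma lines and of untreated and anti-IgM-treated cells were spread over slides 2, 3 and 4, and GC arrays over slides 2 and 4. The lymphoma minus untreated difference was recomputed within each slide. For Nr4a1 the lymphoma minus untreated difference was -3.46, -6.00 and -6.36 on slides 2, 3 and 4, with limma adjusted p = 0.0191, 0.0322 and 0.00504, and -5.30 with slide as a block. For Nr4a2 it was -2.36, -3.62 and -5.69, with adjusted p = 0.249, 0.105 and 0.00428, and -3.86 with slide as a block. The only untreated sample on slide 2 was ATMWT and those on slides 3 and 4 were ATMKO, so slide and genotype cannot be told apart in these values. In a bulk sample fewer cells of a type and less RNA per cell also cannot be told apart.

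Markers of other cells moved with this comparison, where 35.8% of all genes changed and 21.1% were lower. Without the array of line 1039 that stood apart, the median log2 ratio of 5 neutrophil genes was -6.48 to -5.99 in the lines (up to -3.33 with it) and 1.68 and 1.50 in untreated ATMKO and ATMWT cells, and 4 of the 5 were lower in the lines. For 6 macrophage genes it was -3.01 to -2.29 in the lines (up to -1.38 with that array) and 0.75 and 0.60 in untreated cells, with 5 of 6 lower. For 6 T cell genes it was -2.72 to -1.32 (up to -0.96) in the lines and 0.77 and 0.48 in untreated cells, with 5 of 6 lower, and for 4 NK cell genes -1.64 to -1.29 (up to -0.84) in the lines and 1.21 and 1.54 in untreated cells, with 3 of 4 lower. The 3 erythroid and 2 stromal markers were all lower in the lines, and no stromal marker was above background in any line. The 7 B cell markers had medians of -0.44 to 0.63 in the lines and 0.45 and 0.56 in untreated cells. The same markers moved between the lines and anti-IgM-treated cells. Medians in the treated cells were 0.54 to 1.62 for neutrophil, -0.30 to 1.39 for macrophage, 0.08 to 0.42 for T cell and -0.98 to 0.82 for NK cell genes. In that order 4 of 5, 5 of 6, 5 of 6 and 3 of 4 were lower in the lines, where 46% of all genes changed and 24.8% were lower. The part of these other cells in the NR4A differences was not tested.

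The lymphoma lines were also below the anti-IgM-treated splenic cells, where 46% of genes changed and 24.8% were lower. The differences were -3.20 ± 0.62 for Nr4a1 and -1.93 ± 0.63 for Nr4a2 (SE, 9 lines against 4 samples, limma adjusted p = 0.000687 and 0.0205), and -0.69 ± 0.27 for Nr4a3 (adjusted p = 0.0538), whose probe was above background on 1 of 12 lymphoma arrays, so that its size is limited by background. Nr4a3 passed without the 24 h sample (-0.93, adjusted p = 0.0139), without line 1039 (-0.74, adjusted p = 0.0443) or without either untreated sample (adjusted p = 0.038 each), and in the sample channel alone (-0.74, adjusted p = 0.0439). On slides 2, 3 and 4 the Nr4a1 difference was -2.36, -3.93 and -3.14 and the Nr4a2 difference -1.52, -1.99 and -3.44. The Nr4a2 call was lost without the 3 h sample (adjusted p = 0.0828) or the 6 h ATMKO sample (adjusted p = 0.0531). Against the 24 h sample alone, the lines differed by -1.25 ± 0.52 and -0.42 for Nr4a1 and Nr4a2 (limma adjusted p = 0.102 and 0.795, 27.4% of genes changed), and the Nr4a1 value became -1.32 (adjusted p = 0.0255, 28.4% changed) without both arrays that stood apart. Against the 3 h sample alone Nr4a1 and Nr4a2 were lower in the lines, at -5.22 and -3.20 (limma adjusted p = 0.000111 and 0.0294, 34.1% changed). Against the 6 h samples alone Nr4a1 passed, at -3.17 from ATMKO and -3.15 from ATMWT cells (adjusted p = 0.00223 and 0.00208, 24.7% and 26.7% changed), with Nr4a2 at -2.15 and -1.96 (adjusted p = 0.144 and 0.173).

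Between lymphoma lines and GC B cells no member passed the test, in a comparison where 9.75% of genes changed, or 15.4% without the arrays that stood apart. Without those arrays the differences were -0.23 ± 1.04 for Nr4a1 and 0.83 ± 1.17 for Nr4a2 (SE, 9 lines against 1 GC sample, limma adjusted p = 0.923 and 0.71). With them they were -1.24 and -0.03 (adjusted p = 0.542 and 0.992). Nr4a3 was near background on both sides and is given no difference here. The labels name both biological and technical repeats among the GC arrays without saying which is which, and all were averaged as 1 sample. With that single GC sample the standard errors leave room for differences of several fold in either direction.

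GC B cells had low Nr4a1 and Nr4a2 ratios. Against untreated splenic cells, and without the arrays that stood apart, Nr4a1 was 25.8-fold lower in GC cells (log2 difference -4.69 ± 1.21 SE, limma adjusted p = 0.0145) and Nr4a2 19-fold lower (-4.24 ± 1.36, adjusted p = 0.0446), 1 GC sample against 2, with 17% of genes changed. With the first GC array included the values were -3.61 ± 1.26 and -3.17 ± 1.28 and passed no threshold (adjusted p = 0.0809 and 0.132, 11.5% changed), though Nr4a1 passed without the untreated ATMWT (-5.16, adjusted p = 0.0252), the 3 h (adjusted p = 0.0319) or the 24 h sample (adjusted p = 0.0376). Without the untreated ATMKO sample they were -2.07 and -2.00 (adjusted p = 0.408 and 0.489), all arrays otherwise kept. In the sample channel alone, without the arrays that stood apart, they were -2.93 ± 1.02 and -4.39 ± 1.49 and passed no threshold (adjusted p = 0.0779 and 0.0724). Nr4a3 was above background on 0 of 3 GC arrays. In the sample channel the level taken for GC cells, over all 3 GC arrays, was 1.62-fold lower than in untreated ATMKO cells. It was 2.62-fold lower than at 3 h and 1.12-fold lower than at 6 h in ATMKO cells. Untreated ATMWT and 24 h cells were not above background either, so no such value is given for whole groups. The Nr4a3 ratio to the pool passed no threshold against untreated or anti-IgM-treated cells. Against anti-IgM-treated cells the differences without those arrays were -3.04 and -2.97 (adjusted p = 0.0654 and 0.106, 20.4% changed), and with them -1.96 and -1.90 (adjusted p = 0.295 and 0.32, 14.2% changed). Markers of other cells moved with these comparisons too. Without the first GC array the median log2 ratio of the neutrophil genes in GC cells was -6.26 and that of the macrophage genes -2.91, of the T cell genes -2.60 and of the NK cell genes -1.85, beside the untreated and anti-IgM medians given above. Against untreated cells, without the arrays that stood apart, 4 of 5 neutrophil, 5 of 6 macrophage, 4 of 6 T cell and 3 of 4 NK cell genes were lower in GC cells. In that comparison 17% of all genes changed. The part of these cells in the NR4A values was not tested.

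In the ATMKO splenic cells the Nr4a1 and Nr4a2 ratios were highest without anti-IgM. From untreated through 3, 6 and 24 h the mean log2 ratios were 3.20, 2.03, -0.03 and -1.95 for Nr4a1 and 2.19, 1.01, -0.03 and -1.77 for Nr4a2, and 0.71, 1.54, 0.25 and -0.30 for Nr4a3. At 24 h Nr4a1 was 35.6-fold lower than untreated (log2 difference -5.15 ± 0.70, limma adjusted p = 0.00599, 2.29% of genes changed). In the sample channel alone, without both arrays that stood apart, it was 9.16-fold lower (-3.20 ± 0.49, adjusted p = 0.0068), and the pool channel at this probe also differed between the arrays. Nr4a2 differed by -3.96 ± 1.33 (adjusted p = 0.206), and Nr4a3, not above background at 24 h, read 2.12-fold lower in the sample channel (adjusted p = 0.121). At 6 h the differences from untreated were -3.23 ± 0.70 for Nr4a1 (adjusted p = 0.0761, 0.71% changed, and 0.0139 without both arrays that stood apart, 1.64% changed), -2.23 for Nr4a2 (0.585) and -0.45 for Nr4a3 (0.616). At 3 h they were -1.18 ± 0.70, -1.18 ± 1.33 and 0.83 ± 0.29 (adjusted p = 0.503, 0.8 and 0.191, 1.31% changed), and in the sample channel alone Nr4a1 differed by -1.70 ± 0.49 at 6 h and by -0.24 ± 0.49 at 3 h (adjusted p = 0.164 and 0.946). Between 3 h and 24 h Nr4a1 was 15.8-fold (adjusted p = 0.00672, 7.77-fold in the sample channel alone with adjusted p = 0.00627) and Nr4a3, in the sample channel, 3.43-fold (adjusted p = 0.00393) higher at 3 h, where 10.4% of genes changed, and Nr4a2 differed by 2.78 ± 1.33 (adjusted p = 0.231). All of these compare single samples by limma with the spread of the 9 lines, and no sample was taken before 3 h. Markers of other cells moved in these samples too. From untreated through 3, 6 and 24 h the NK cell median was 1.21, 0.82, -0.14 and -0.98. In that order erythroid medians were 1.76, 0.70, 0.17 and -1.30. Neutrophil medians were 1.68, 1.62, 0.68 and 0.54, and T cell medians 0.77, 0.42, 0.08 and 0.34. Macrophage medians were 0.75, -0.27, -0.12 and 1.39, and B cell medians 0.45, -0.51, -0.77 and -0.13. The part of these cells in the NR4A values was not tested.

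In ATMWT splenic cells, sampled untreated and at 6 h only, Nr4a1 and Nr4a2 had nearly the same ratio at both. At 6 h against untreated, Nr4a1 differed by -0.15 and Nr4a2 by -0.07 in ATMWT cells (limma adjusted p = 0.987 and 0.998, 1.13% changed), and Nr4a3, not above background untreated, read 1.63-fold higher in the sample channel (adjusted p = 0.328). In the sample channel alone the Nr4a1 difference was 1.33 ± 0.49 (adjusted p = 0.35). At 6 h the ATMKO and ATMWT samples lay within 0.19 of each other for all members, at differences of 0.02, 0.19 and 0.04 (adjusted p = 1 each, 0% changed). The untreated samples differed by 3.10 ± 0.70 for Nr4a1 and 2.35 ± 1.33 for Nr4a2 between ATMKO and ATMWT (adjusted p = 0.288 and 1, 0.117% changed), with Nr4a3 reading 2.32-fold higher in ATMKO in the sample channel (adjusted p = 0.338), and without both arrays that stood apart the Nr4a1 difference had a standard error of 0.51 and an adjusted p = 0.041 (0.255% changed). The 6 h effect in ATMKO minus that in ATMWT cells was -3.08 ± 0.99 for Nr4a1 and -2.16 ± 1.88 for Nr4a2 (limma adjusted p = 1 each). No gene of the whole table passed that test, and 354 had an unadjusted p under 0.05. Each genotype was 1 untreated sample, the 3 untreated ATMKO arrays being technical repeats, and the ATMWT arrays were on slide 2 and the untreated and 6 h ATMKO arrays on slides 3 and 4.

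Taking both genotypes together, no member passed the test. At 6 h against untreated the differences were -1.69 ± 0.69, -1.15 ± 0.49 and 0.12 ± 0.28 for Nr4a1, Nr4a2 and Nr4a3 (SE, 2 samples against 2, limma adjusted p = 0.135, 0.149 and 0.785, 28.5% of genes changed, 1 residual degree of freedom). All stimulated against all untreated samples gave -1.97 ± 1.28, -1.50 ± 0.94 and 0.15 ± 0.58 (adjusted p = 0.822, 0.812 and 0.985). No gene passed in that comparison by limma and 1678 had an unadjusted p under 0.05. ATMKO against ATMWT gave 1.27 ± 1.28, 0.91 ± 0.94 and 0.65 ± 0.58 (adjusted p = 1 each), again with no gene called by limma and 131 at an unadjusted p under 0.05. The 6 h arrays carry the time 3 hours in a label field and 6 h in their titles and treatment text, and the titles were followed.

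The pool itself read differently for Nr4a1 on the untreated arrays. The normalised log2 signal of the pool channel at the Nr4a1 probe was 13.81 to 14.38 on the 4 untreated arrays and 15.04 to 16.27 on the other 18 concordant pool arrays, all labelled as carrying the same pool. For Nr4a2 the pool channel was 10.54 to 10.97 on untreated arrays and 10.47 to 11.14 on the others, and for Nr4a3 6.68 to 6.89 and 6.47 to 6.76. In the sample channel, Nr4a1 read 17.20 to 17.41 on the untreated ATMKO arrays, 17.06 at 3 h, 15.49 to 15.71 at 6 h in ATMKO cells and 14.11 at 24 h, so that the order within ATMKO cells was the same in the sample channel alone. In ATMWT cells it read 15.68 at 6 h and 14.35 untreated, a difference that the ratio does not show. Sizes also differed: over both untreated samples the lymphoma minus untreated Nr4a1 difference was -3.06 in the sample channel alone, beside -4.92 as a ratio, both without the arrays that stood apart. The part of the pool channel in any Nr4a1 comparison with untreated cells was not tested.

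Among the 9 lymphoma lines, those with the most Nr4a1 had little Nr4a2. Over the 16 samples the ratios of Nr4a1 and Nr4a2 correlated at r = 0.84, those of Nr4a1 and Nr4a3 at 0.79 and those of Nr4a2 and Nr4a3 at 0.64, and without the poor arrays and the untreated ATMKO sample at 0.73, 0.74 and 0.46 (15 samples). Over the 9 lines alone, without the array that stood apart, Nr4a1 and Nr4a2 gave r = -0.59 (a description of 9 points that share the pool RNA). The lines with the highest Nr4a1, 1039, 1007 and 1013, had Nr4a2 at -3.79, -3.44 and -2.61, and the lines with the highest Nr4a2, 1004, 1019 and 1016, had Nr4a1 at -3.59, -3.38 and -3.31. Lines 1001, 1010 and 1039 had a repeat array each, and the spread between repeat arrays of 1 line served to test the differences between lines, so that a call says only that lines differed by more than repeat arrays did. With all arrays the ranges of 1.90 for Nr4a1 and 3.05 for Nr4a2 did not pass (limma F test, adjusted p = 0.373 and 0.785, 2.37% of genes called). Without the first array of line 1039 the ranges were 1.28 and 3.40 and both passed (adjusted p = 0.0127 and 0.000125), and the calls also held without its second array (adjusted p = 0.000744 and 6.92e-05), where line 1039 rests on the array that stood apart and its values have no firm size.

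**Figure D2:**
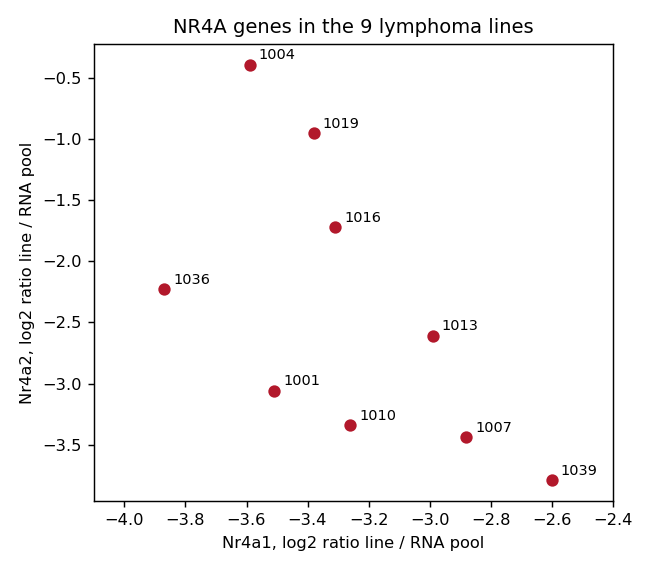
Log2 ratio to the pool of Nr4a2 against that of Nr4a1 in the 9 lymphoma lines, without the array of line 1039 that stood apart. Line 1039 is highest for Nr4a1 (-2.60) and lowest for Nr4a2 (-3.79), and line 1004 is highest for Nr4a2 (-0.39).

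The lines with most Nr4a1 were also those with most Egr1 and Egr2, zinc finger transcription factors induced by antigen receptor signalling. Egr1 had a log2 ratio of 1.88 in line 1039, 1.93 in 1007 and 1.85 in 1013, and -0.94 to 0.68 in the other lines. Egr2 was -0.69, -1.04 and -0.39 in those lines and -4.07 to -2.02 in the others. Over the 9 lines Nr4a2 correlated with Egr1 and Egr2 at r = -0.6 and -0.55, and Nr4a1 with Egr1 at 0.9, with Egr2 at 0.85, with Ier2 at 0.81 and with Klf6 at 0.78. Those 4 were the highest of the list for Nr4a1. Of 26 immediate early genes 21 had r above 0 with Nr4a1, with a median of 0.25 beside 0.05 over all genes. Ier3 (-0.68), Atf3 (-0.34), Egr3 (-0.23), Nfkbid (-0.22) and Ier5 (-0.14) were below 0. These genes were picked out after their values were seen, the points share the pool RNA, and no test was made.

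In the lymphoma lines given PCI-32765, Nr4a1 was lower than in DMSO in both lines at all 4 times, and Nr4a2 did not pass the test. The log2 ratio of PCI-32765 to DMSO for Nr4a1 at 1, 3, 6 and 24 h was -0.28, -0.85, -0.72 and -1.26 in line 178119 and -0.92, -1.32, -0.93 and -0.59 in line 28545. For Nr4a2 it was 0.22, 0.11, -0.02 and -0.15 in line 178119 and 0.05, -0.31, -0.39 and -0.24 in line 28545. All 8 Nr4a1 values were below 0, and 5 of 8 Nr4a2 values. Averaged over lines and times Nr4a1 stood at 55.1% of DMSO (log2 difference -0.86 ± 0.09 SE, limma adjusted p = 0.000131, 8 arrays), 58.3% in line 178119 and 52.1% in line 28545. In that comparison 32.4% of 17926 genes changed and 15.7% were lower. The fit takes the 4 times of a line as separate values, though only lines 178119 and 28545 stand behind them. PCI-32765 was in Cy5 on all 8 arrays, so a dye bias of a probe and a drug effect cannot be told apart in these ratios. Scaling each array by its median in place of loess left the Nr4a1 mean at -0.29 and turned the 1 h value to 0.19. Nr4a2 stood at 93.9% of DMSO (-0.09 ± 0.06, adjusted p = 0.306), with the second probe at 0.01 ± 0.13 (SD, n = 8). Nr4a2 was above background in the PCI-32765 channel on 4 of 8 arrays, and Nr4a3 on 0 of 8, where its ratio of 0.07 ± 0.06 (SD) was not tested. The offset of the background correction pulls log2 ratios of such faint probes towards 0. The deposited Nr4a2 log2 ratios at 1, 3, 6 and 24 h were 0.21, 0.17, -0.21 and -0.56 in line 178119. In line 28545 they were 0.17, -1.09, -1.04 and -0.45. An absence of change in Nr4a2 can therefore not be read from these arrays.

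**Figure D3:**
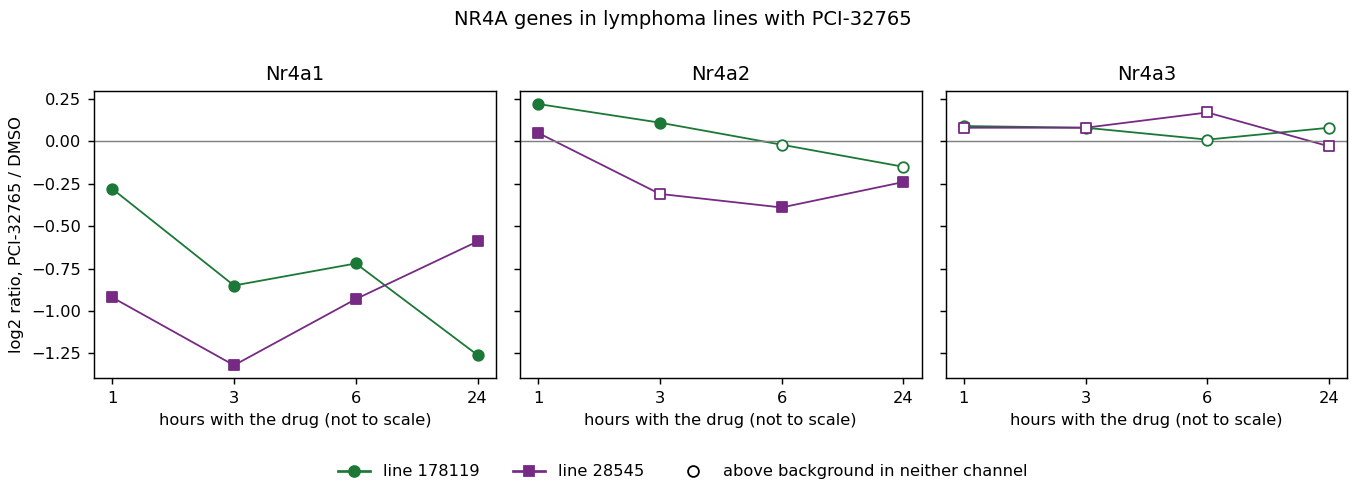
Log2 ratio of PCI-32765 to DMSO for Nr4a1, Nr4a2 and Nr4a3 in lines 178119 and 28545 at 1, 3, 6 and 24 h (1 array per point, open points above background in neither channel). All 8 Nr4a1 values lie below 0, between -1.32 and -0.28, while Nr4a2 lies between -0.39 and 0.22 and Nr4a3 near 0.

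By time, Nr4a1 passed the test at 3, 6 and 24 h. The mean over the 2 lines was -0.60 ± 0.19 at 1 h, -1.08 at 3 h, -0.83 at 6 h and -0.93 at 24 h (limma adjusted p = 0.218, 0.00892, 0.0111 and 0.00715), where 0.1%, 7.35%, 24.3% and 23.1% of genes changed. With the array of 1 line at that time left out, the 3 h value was -1.32 or -0.85 and the 6 h value -0.93 or -0.72. Without the 24 h array of line 178119 the 24 h value was -0.59. Each of these calls was then lost, with 1 array left at that time and the spread taken from the other times. The 24 h minus 1 h difference was -0.33 ± 0.27 (adjusted p = 0.497, 7.17% changed). The effect in line 28545 minus that in 178119 was -0.16 ± 0.19 for Nr4a1 and -0.26 ± 0.11 for Nr4a2 (adjusted p = 1 each), no gene was called by limma and 648 had an unadjusted p under 0.05.

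Other immediate early genes were compared with the members from a list of 26. In lymphoma lines against untreated cells 17 of 26 were lower and 1 was higher, where 35.8% of all genes changed and 21.1% were lower, with a median log2 difference of -1.56, beside -0.01 over all genes tested. Dusp1, a phosphatase that switches off MAP kinases, was lower, at -3.60 (limma adjusted p = 1.2e-05), and Gadd45b, a stress-response gene, was the 1 that was higher, by 1.79 (adjusted p = 0.000578). Egr1 and Egr2 differed by -0.48 and -2.02 without passing (adjusted p = 0.641 and 0.12). At 6 h of anti-IgM against untreated cells 16 of 26 were lower and 3 higher, where 28.5% of all genes changed, with a median of -0.97 beside -0.05. The AP-1 subunits Fos and Fosb were lower, at -5.57 ± 0.13 and -5.01 (adjusted p = 0.00191 and 0.00245), and the higher ones were Egr2 (2.04, adjusted p = 0.0427), its corepressor Nab2 (1.56, adjusted p = 0.00252) and Gadd45b (0.84). Between lymphoma lines and GC cells 2 of 26 were lower and 0 higher, where 9.75% of all genes changed.

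Under PCI-32765, 19 of 24 measured immediate early genes were lower and 3 higher, where 32.4% of all genes changed and 15.7% were lower, with a median of -0.65 beside 0.01 over all genes. Egr1 was lower, at -2.32 ± 0.07 (limma adjusted p = 1.41e-07), Egr2 by -1.56 (adjusted p = 1.18e-06), Myc by -1.54 (adjusted p = 2.92e-07) and Tnfaip3, an inhibitor of NF-kappaB signalling, by -1.63. Nr4a1 at -0.86 was near the middle of the list and Nr4a2 at -0.09 was nearer to 0 than its median. The Nr4a2 probe was faint on the drug arrays, so its value has no firm size. The 3 that were higher were Btg2 (0.72), Csrnp1 (0.50) and Klf6 (0.22). At 3 h 16 were lower and 1 higher, where 7.35% of all genes changed, with a median of -0.83. At 24 h 8 were lower and 3 higher, where 23.1% of all genes changed, with a median of -0.23.

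**Figure D4:**
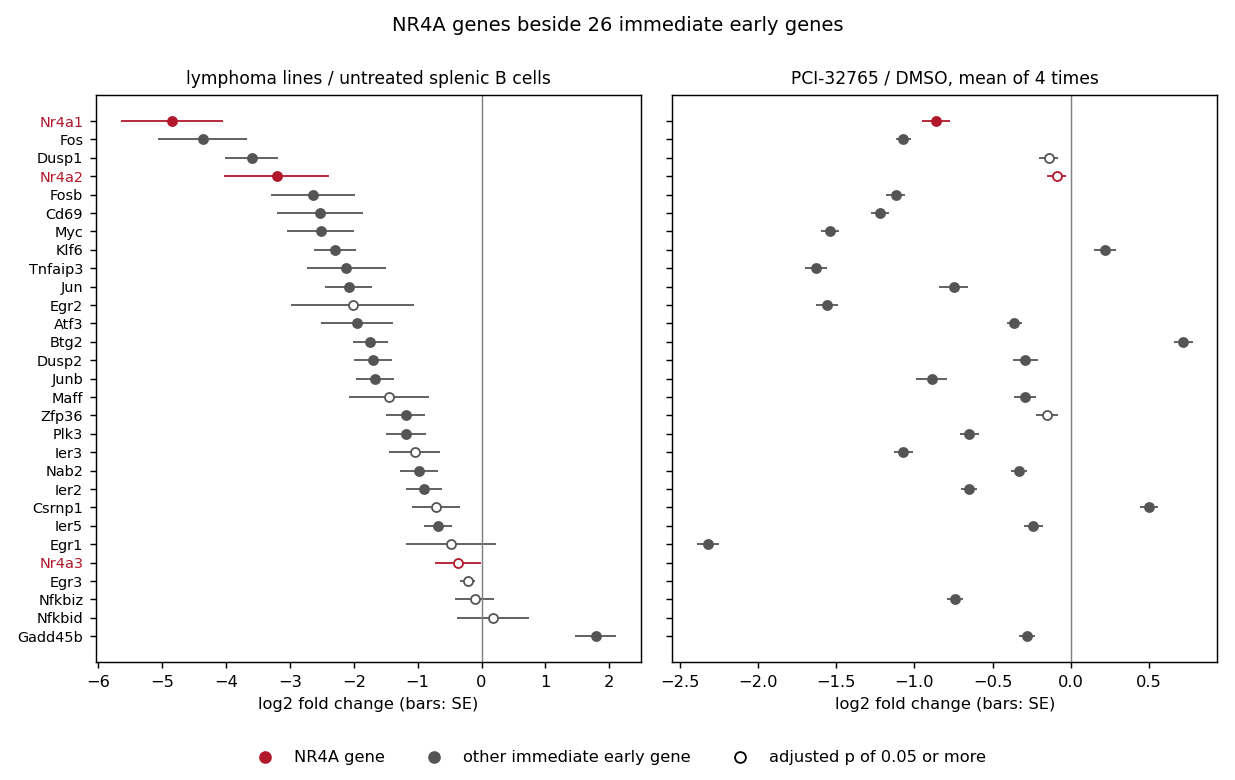
Log2 difference with its SE for the NR4A members and 26 immediate early genes, lymphoma lines minus untreated splenic cells in one panel and PCI-32765 against DMSO averaged over 8 arrays in the other. Open points have a limma adjusted p of 0.05 or more. Nr4a1 lies at the low end in the lymphoma panel (-4.85) and near the middle of the drug panel (-0.86).

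Genes that act upstream of NR4A transcription changed at a share near that of all genes in the lymphoma lines and under PCI-32765. Of 26 such genes (calcineurin subunits, NFAT, MEF2, class IIa histone deacetylases, CREB and SRF factors), 5 were lower and 5 higher in lymphoma lines than in untreated cells, with a median of 0.00, where 35.8% of all genes changed and 21.1% were lower. Elk1, an ETS partner of SRF, was lower, at -1.64 (limma adjusted p = 4.21e-06), while Mef2b was higher by 2.97 (adjusted p = 8.64e-07) and Hdac9, a deacetylase that binds MEF2 factors, by 1.32 (adjusted p = 0.00743). Under PCI-32765 5 of 23 were lower and 3 higher, with a median of 0.02, where 32.4% of all genes changed, among them Hdac9 (-0.52, adjusted p = 0.000224), Nfatc1 (-0.36, adjusted p = 0.00075) and Ppp3cc, a calcineurin catalytic subunit (0.36, adjusted p = 0.00275). At 6 h of anti-IgM 7 were lower and 3 higher, where 28.5% of all genes changed, with Nfatc2 at -1.45 (adjusted p = 0.00323) and Rcan1, a calcineurin inhibitor that NFAT induces, at 1.42 (adjusted p = 0.00602).

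Of 9 partners and cofactors, 3 were lower in lymphoma lines than in untreated cells and 0 higher, where 35.8% of all genes changed and 21.1% were lower. Among them were the coactivator Ncoa3 (-1.07, limma adjusted p = 0.0012) and Rxrb, a retinoid X receptor of the kind that pairs with Nr4a1 and Nr4a2 (-0.64, adjusted p = 0.00925). Under PCI-32765 1 of 8 was lower, where 15.7% of all genes were, again Rxrb (-0.15, adjusted p = 0.0259).

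Of 6 genes that NR4A factors are known to hold down in mouse B cells, 3 were lower in lymphoma lines than in untreated cells and 1 higher, where 21.1% of all genes were lower and 35.8% changed. The chemokines Ccl4 (-5.40, limma adjusted p = 6.3e-05) and Ccl3 (-2.29, adjusted p = 0.00283) and Myc were lower, and the AP-1 factor Batf was higher by 1.66 (adjusted p = 0.00166), while the costimulatory ligand Cd86 differed by 0.41 (adjusted p = 0.544). At 6 h of anti-IgM 3 were higher and 0 lower, where 28.5% of all genes changed, namely Ccl4 (1.38, adjusted p = 0.0434), Batf (1.01, adjusted p = 0.00501) and Ccl3 (0.93, adjusted p = 0.00824). Under PCI-32765 3 of 4 were lower, where 15.7% of all genes were, namely Myc, Batf (-0.87, adjusted p = 1.59e-05) and Icam1, an adhesion molecule (-0.73, adjusted p = 0.000103), and Cd86 differed by -0.13 (adjusted p = 0.141). Nr4a1 was lower under PCI-32765 as well.

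The genes whose ratios ran most like each member over the 16 pool samples were named by Pearson's r. For Nr4a1 the nearest named gene was Fasl, the death ligand of cytotoxic lymphocytes, at r = 0.984. For Nr4a2 they were Tlr9, the endosomal DNA sensor of B cells, at 0.905, Pparg, a nuclear receptor, at 0.895 and Rasgef1b at 0.883. For Nr4a3 they were Kpna1 (0.942), Strn3 (0.924), Cxcl1 (0.908) and Gm5258 (0.906). Without the arrays that stood apart Fasl (0.983) was again nearest to Nr4a1, with Srek1 (0.965) also among its 5 nearest, Tlr9 (0.919), Samd10 (0.907) and Pparg (0.898) were among those of Nr4a2, and Strn3 (0.921), Kpna1 (0.917), Gm5258 (0.909) and Lemd3 (0.899) among those of Nr4a3. Over the 8 drug arrays Nr4a1 was nearest to Trim27 (0.979), Gab2 (0.913), Alkbh3 (0.898), Tomm20 (0.891) and Klf10 (0.888), and Nr4a2 to Gabra4 (0.987), Spopfm2 (0.953) and Zfp827 (0.927). The remaining entries among the 5 nearest are not listed here. These are the highest coefficients over all genes tested and are a description of the arrays alone.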

How the data were processed

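The deposited scanner files hold red and green spot intensities (mean signal and local background) written by Feature Extraction 10.1.1.1 per the file headers, while the submitters' processing notes name version 9.1. The authors' deposited series table holds log10 ratios of Cy5 over Cy3, equal to the scanner files' log ratios within 5e-04, and was used as an alternative after conversion to log2. Here intensities of the 62976 spots were corrected by normexp (offset 50) and loess-normalised within arrays with limma 3.58.1 in R 4.3.3, without control and outlier spots. The offset pulls log2 ratios of faint probes towards 0, such as Nr4a3, and Nr4a2 on the drug arrays. Spots were averaged per probe, the brightest probe stood for a symbol among those detected by 1 dye or both on a share of arrays of 0.5 or more, and technical repeats were averaged. Symbols were updated through RefSeq for 2838 entries, and 27235 of 55681 probes matched an accession.

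Log2 ratios were tested with lmFit and eBayes over all genes tested, with Benjamini-Hochberg adjusted p under 0.05 as the threshold, separately for the pool samples, the splenic samples and the 8 drug arrays. A difference with its SE is given as log2. The labels do not say that samples of a group came from separate mice, so p-values measure the spread between these samples. The members and lists were chosen with earlier results of these data known. Up to 3 genes per list with the greatest absolute change past the threshold were named, with Egr1, Egr2, Myc, Batf, Cd86, Ccl3 and Ccl4 always, and the 5 genes nearest to each member, and some genes that this rule takes are not reported here. In a self-test with known changes of log2 1 and 2, the lymphoma minus untreated step (21399 genes) recovered 56% and 85%, the PCI-32765 step (17926 genes) 100% and 100%, and the stimulated minus untreated step (22301 genes) 0% and 41%. Unchanged genes called were 4, 8 and 2 in that order. The simulated noise was independent between samples, without dye bias or dependence within a line, so these shares do not cover those limits of the real arrays. The alternatives covered background correction, normalisation, filter, probe choice, slide and single arrays. Single-sample fits, fits of the sample channel alone, fits without the arrays that stood apart and the correlations over lines were added after the data were seen. The precision is limited by the number of arrays.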

Additional observations from a re-analysis of the deposited data

Results flagged for a closer look

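Nr4a3 in line 1039 lay apart from the other 8 lines. Its log2 ratio to the pool was 0.17 with all arrays and 0.28 without the first array of that line, against -0.52 to -0.19 in the others, and it was the 1 lymphoma array on which the probe was above background. A gap of this share of the range was looked for in 12 groups of values, and chance gives it in about 1 group in 20. Line 1039 was also the line with the highest Nr4a1 and the lowest Nr4a2.

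The 6 h anti-IgM effect on Nr4a3 ran opposite ways in the genotypes, -0.45 in ATMKO and 0.70 in ATMWT splenic B cells, a difference of -1.15 with 1 sample per genotype and time. The test of that difference did not pass (limma adjusted p = 1). The probe was not above background in untreated ATMWT cells, so these values have no exact size.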

How the results depend on the processing

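Of 905 recomputed values over 40 results, 811 kept their direction and their side of the threshold, 21 lost the call, 30 gained it, 2 moved and 41 turned their sign, of which 0 had a call on either side. Each range below is over the fits without 1 sample, a lymphoma line counting as a sample. For the drug arrays and the test among lines it is over the fits without 1 array. Values are for Nr4a1, Nr4a2 and, where tested, Nr4a3 in that order. The cause of each change named here was not tested.

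The lymphoma minus untreated differences were -6.40 to -3.30, -4.38 to -2.03 and -0.97 to 0.23. Nr4a2 lost its call without the untreated ATMKO sample (adjusted p = 0.195) and on slides 2 (-2.36) and 3 (-3.62), and Nr4a3 was 0.14 on slide 2. The lymphoma minus stimulated differences were -3.85 to -2.52, -2.44 to -1.51 and -0.93 to -0.31. Nr4a2 lost its call with first repeats only (-1.70) and on slides 2 (-1.52) and 3 (-1.99). Nr4a3 passed with Agilent processed signals (-2.20), offset 10 (-1.09), median centring (-0.77), deposited log ratios (-2.17), first repeats only (-0.70), slide as a block (-0.68) and the sample channel alone without both arrays that stood apart (-0.74). The lymphoma minus GC differences were -1.39 to -1.15, -0.26 to 0.13 and -0.02 to 0.07. Nr4a1 passed on slide 2 alone (-3.55), where the GC array was the one that stood apart, and was -0.23 without both arrays that stood apart. Nr4a2 was 1.04 without the first GC array and 0.83 without both arrays that stood apart (1.01 in the sample channel alone). Nr4a3 was 0.00 with scale normalisation, -0.36 with first repeats only and -0.43 on slide 2.

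The GC minus untreated differences were -5.16 to -2.07, -4.35 to -2.00 and -1.0 to 0.19. Nr4a1 passed without the first GC array or both (-4.69 each), with slide as a block (-3.83) and on slide 4 (-6.33), and Nr4a2 without the first GC array or both (-4.24 each) and on slide 4 (-5.46). On slide 2, whose GC array was the one that stood apart, the members gave 0.08, 0.14 and 0.58, and Nr4a3 was 0.13 with first repeats only. The GC minus stimulated differences were -2.61 to -1.29, -2.41 to -1.48 and -0.96 to -0.35. Nr4a1 and Nr4a2 passed on slide 4 (-3.11 and -3.20), were 0.21 and 0.24 with first repeats only, and the members were 1.19, 0.98 and 0.14 on slide 2.

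The stimulated minus untreated differences were -3.19 to -0.15, -2.46 to -0.07 and -0.21 to 0.70, with -0.15 and -0.07 on slide 2 for Nr4a1 and Nr4a2 and -0.62 on slide 4 for Nr4a3. At 6 h against untreated they were -3.23 to -0.15, -2.23 to -0.07 and -0.45 to 0.70. The ATMKO minus ATMWT differences were 0.06 to 3.10, -0.04 to 2.35 and 0.29 to 1.20, with -1.32, -1.07 and -0.39 with slide as a block and -1.91, -1.55 and -0.51 on slide 2. Among lines the range was 1.28 to 2.52 for Nr4a1 and 3.05 to 3.44 for Nr4a2, and it passed without either array of line 1039 (1.28 and 3.40 without the first).

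Under PCI-32765 the Nr4a1 and Nr4a2 ranges were for the mean -0.94 to -0.77 and -0.14 to -0.04, at 1 h -0.92 to -0.28 and 0.05 to 0.22, at 3 h -1.32 to -0.85 and -0.31 to 0.11, at 6 h -0.93 to -0.72 and -0.39 to -0.02, at 24 h -1.26 to -0.59 and -0.24 to -0.15, for 24 h minus 1 h -0.66 to 0.01 and -0.42 to -0.25, and for the difference between lines -0.44 to 0.00 and -0.31 to -0.21. Nr4a1 lost its call with processed signals, median centring and deposited ratios at 3 h (-0.90, -0.31 and -1.09) and 6 h (-0.69, -0.51 and -0.80), and with processed signals and median centring at 24 h (-0.81 and -0.52). Median centring gave 0.19 at 1 h for Nr4a1 and 0.05 at 3 h for Nr4a2. With the line as a term beside time in the limma fit the means stayed at -0.86 (adjusted p = 0.00016) and -0.09 (adjusted p = 0.226), and no call changed. That term takes out the mean difference between the lines, and the times of a line are still taken as separate. Values of Nr4a3, within reach of background in most samples, are limited by its signal.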
